A study of Drosophila melanogaster with 9 samples.

Results

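Neural precursor and mitotic genes were examined in dissected Drosophila melanogaster brains, starting from 10 genes: ase, dpn, pros, wor, CycA, CycB, CycB3, CycE, stg and Cdk1. A gene was included where a probe set carried its symbol alone in the platform annotation, which held for 7 of the 10, out of 11982 genes with a probe set of their own. CycA, stg and Cdk1 had no such probe set and were not analysed here. Each of the 7 genes had 1 probe set, so no choice between probe sets was needed. The 9 Affymetrix Drosophila 2.0 arrays comprised 3 for each of 3 ages, namely 3 days (3d), 30 days (30d) and 60 days (60d). All flies aged naturally at 25°C on cornmeal molasses medium with yeast, and no genotype, strain, sex or treatment was named. The labels do not say whether replicates were separate animals or pools, so each p-value reflects array-to-array spread alone, which may be technical. Of 13 neuron markers, elav and brp among them, 12 averaged above 6.67 on the log2 scale (the 60th percentile of all values) at each age. That level alone does not identify the tissue. At 3d 9 of 14 ovary, 5 of 8 haemocyte and 3 of 6 fat body markers also averaged above it.

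In the developing fly, neural stem cells called neuroblasts divide asymmetrically, renewing themselves and budding off ganglion mother cells that divide once more into neurons or glia. Transcription factors such as ase, dpn and wor mark the neuroblast, whereas pros enters the nucleus of the ganglion mother cell and ends its divisions. The divisions are driven by cyclins, which switch on cyclin-dependent kinases: CycE at entry into DNA replication, and CycA, CycB and CycB3 at mitosis, when the phosphatase stg activates Cdk1. Neuroblasts have stopped dividing or died by the time the adult emerges, and dividing cells are rare in the adult brain.

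Levels are given as log2(signal + 1) of the deposited signal, and each change as a difference on that scale with its SE. All tests came from limma, with p-values adjusted over all 8171 genes tested. A gene was tested where 3 or more arrays were above 5.71, which is the 40th percentile over every value in the table, and 6 of the 7 genes passed. This line is not a detection call, and no detection calls were used here. In bulk tissue fewer cells of a type and less RNA per cell cannot be told apart.

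The arrays themselves differed at the dim end, where most of these genes lie. The 25th percentile of all probe sets averaged 4.73, 5.16 and 4.97 at 3d, 30d and 60d, and the 10th percentile 3.67, 4.19 and 3.93. All 30d arrays lay above all 3d arrays at both percentiles. At the 75th percentile the averages were 7.47, 7.52 and 7.53. The bright end shifted the other way, by less: the 90th percentile averaged 8.84, 8.73 and 8.77. There all 30d arrays lay below all 3d arrays, and pros was brighter than this on every array. On 60d replicate 1 the 25th percentile was 4.75, against 5.13 and 5.02 on 60d replicates 2 and 3, so that array resembled the 3d arrays at the dim end. The GAPDH control's log2 ratio of 3' to 5' signal, a measure of RNA integrity, was 5.06 on 3d replicate 1 and 1.58 to 2.07 on the other 8 arrays. Quantile normalization gives all arrays the same percentiles, and its values are set beside the results.

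**Figure D1:**
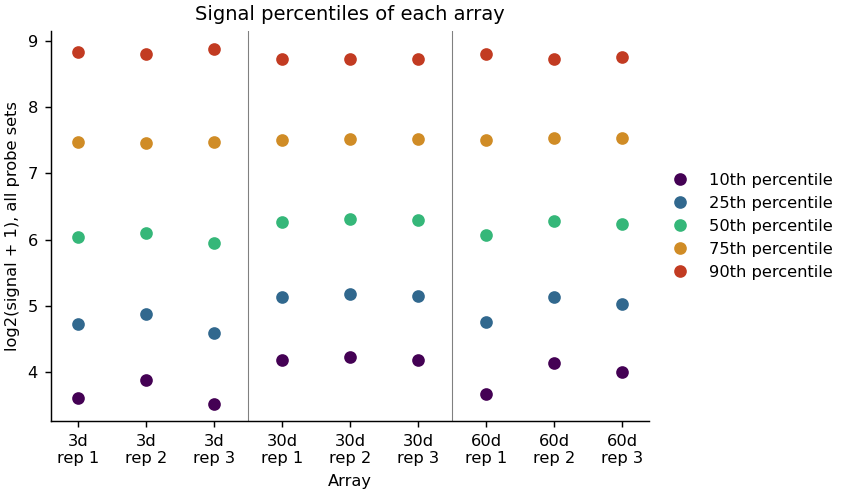
Percentiles of log2(signal + 1) over all probe sets on each of the 9 arrays. The 10th and 25th percentiles were higher on the 30d arrays than on the 3d arrays, while the 75th percentiles were alike, at 7.47 to 7.54. The 90th percentiles were lower on the 30d arrays than on the 3d arrays.

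Among the neuroblast factors, ase, a basic helix-loop-helix transcription factor of the achaete-scute complex, was higher in older brains. Its level was 5.11, 5.03 and 5.10 on the 3d arrays, 5.96, 6.06 and 6.12 on the 30d arrays and 5.47, 5.86 and 6.11 on the 60d arrays. Every 30d and every 60d array thus lay above every 3d array, while the 30d and 60d arrays overlapped. The level averaged 6.05 ± 0.08 at 30d and 5.08 ± 0.04 at 3d (SD, n = 3 each), and the change was 0.97 ± 0.16, or 1.96-fold (adjusted p = 0.00286). The 60d arrays averaged 5.81 ± 0.32 (SD, n = 3). Their difference from 3d was 0.73 ± 0.16, or 1.66-fold (adjusted p = 0.0119). Against 30d the 60d level differed by -0.23 ± 0.16 and did not pass (adjusted p = 0.493). The F-test over the 3 ages also passed (adjusted p = 0.00489).

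The rise of ase concerned a dim signal. All 3d arrays were below the filter value of 5.71, and only the 3 30d arrays and 60d replicates 2 and 3 were above it, so ase entered the test through the ages at which it was high. With every gene tested and no filter, it was still higher at 30d than at 3d (adjusted p = 0.00769) and at 60d than at 3d (adjusted p = 0.0263). After quantile normalization the values were 5.83, 5.89 and 5.98 at 30d and 5.61, 5.72 and 6.06 at 60d, against 5.31, 5.11 and 5.43 at 3d. The 3d arrays again lay below all others, while the 30d and 60d arrays overlapped. The changes against 3d were then 0.62 at 30d (adjusted p = 0.0101) and 0.51 at 60d (adjusted p = 0.0368). With quantile normalization and no filter together, 30d against 3d passed (adjusted p = 0.0207) and 60d against 3d did not (adjusted p = 0.0664). Without 60d replicate 3, the array with the highest 60d value, the change at 60d was 0.58 and did not pass (adjusted p = 0.061).

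wor, a Snail-family zinc finger factor that keeps neuroblasts dividing, was below the filter value on all 9 arrays and was not part of the main test. Its level was 3.59, 4.10 and 3.62 at 3d, 4.51, 4.70 and 4.60 at 30d and 3.75, 4.46 and 3.99 at 60d. The 30d arrays lay above all arrays of the other ages, which overlapped each other. Without a filter, the change was 0.83 ± 0.21 at 30d against 3d (adjusted p = 0.0185) and 0.30 ± 0.21 at 60d against 3d (adjusted p = 0.365). After quantile normalization it was 0.32 ± 0.14 at 30d against 3d and did not pass (adjusted p = 0.109). The mean levels, 3.77, 4.60 and 4.07 at 3d, 30d and 60d, moved with the 10th percentile of the arrays at 3.67, 4.19 and 3.93, whose part in the result was not tested beyond the quantile normalization.

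dpn, a Hes-family repressor that maintains neuroblast self-renewal, did not pass in any comparison of the main fit. Its level was 6.01, 5.31 and 4.91 at 3d, 5.86, 5.82 and 5.59 at 30d and 5.25, 5.75 and 5.76 at 60d, with overlap between all ages. The change was 0.34 ± 0.25 at 30d against 3d (95% interval -0.20 to 0.89, adjusted p = 0.276) and 0.17 ± 0.25 at 60d against 3d (95% interval -0.37 to 0.72, adjusted p = 0.647). Quantile normalization put dpn below the filter, and without a filter these were then -0.013 and -0.028, with the sign turned. The spread at 3d was wide (SD 0.56, n = 3), with replicate 1 highest, and without that array the change at 30d was 0.64 (adjusted p = 0.0184). Without 3d replicate 3, the lowest, it was 0.092 (adjusted p = 0.793). Of 19 alternatives, dpn passed in 4 at 30d against 3d and in 2 at 60d against 3d.

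pros, the homeodomain factor that drives ganglion mother cells out of the cycle and is also kept in many mature neurons, was far above the filter on every array. Its level was 10.48, 9.90 and 10.06 at 3d, 10.24, 10.11 and 10.06 at 30d and 10.05, 10.11 and 9.89 at 60d. The ages overlapped in every comparison, and the group means were 10.15 ± 0.30, 10.14 ± 0.09 and 10.02 ± 0.11 (SD, n = 3 each). The change was -0.13 ± 0.16 at 60d against 3d (95% interval -0.49 to 0.22, adjusted p = 0.588) and -0.013 ± 0.16 at 30d against 3d (95% interval -0.37 to 0.34, adjusted p = 0.953). Both changed sign with quantile normalization, to 0.0042 and 0.16, and neither passed.

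**Figure D2:**
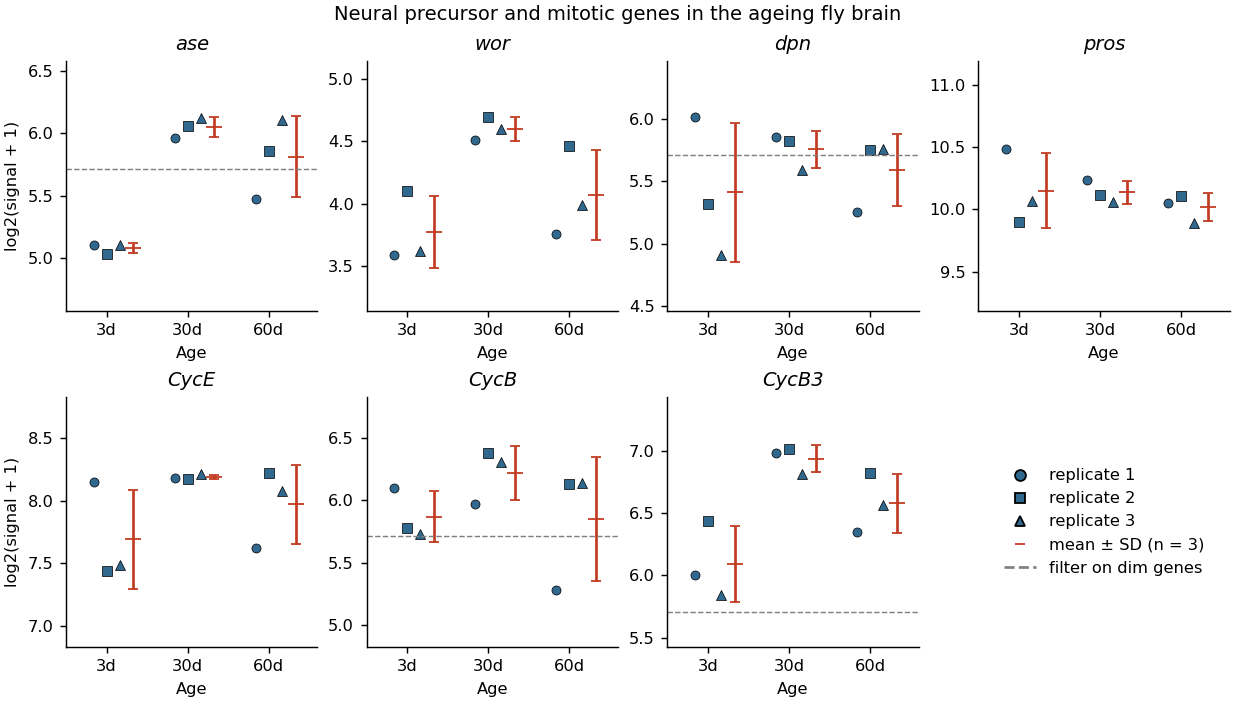
Levels of the 7 genes as log2(signal + 1) at 3d, 30d and 60d, with a marker for each array, the mean ± SD (n = 3) in red and the filter value of 5.71 as a dashed line where it is in range. All panels span the same number of log2 units. For ase and CycB3 all 30d arrays lie above all 3d arrays, wor lies below the filter on every array, and pros lies near 10 at all ages.

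Among the cyclins, CycB3, a B-type cyclin that acts late in mitosis, was higher at 30d. The level was 6.0, 6.43 and 5.85 at 3d, 6.98, 7.01 and 6.81 at 30d and 6.35, 6.82 and 6.57 at 60d. The 30d arrays lay above all 3d arrays, and the 60d arrays overlapped with both. It averaged 6.93 ± 0.11 at 30d and 6.10 ± 0.30 at 3d (SD, n = 3 each), a change of 0.84 ± 0.18, or 1.79-fold (adjusted p = 0.0064). At 60d, with a mean of 6.58 ± 0.24, the change against 3d was 0.48 ± 0.18 and did not pass (adjusted p = 0.0799), nor did that of -0.36 ± 0.18 against 30d (adjusted p = 0.37). The F-test passed (adjusted p = 0.0153). After quantile normalization the change at 30d against 3d was 0.64 (adjusted p = 0.00933), with values of 6.95, 6.94 and 6.74 at 30d and 6.13, 6.49 and 6.08 at 3d. The 60d against 3d difference passed without 3d replicate 2 (0.65, adjusted p = 0.0278) or without 60d replicate 1 (0.60, adjusted p = 0.0352). It was 0.32 with quantile normalization (adjusted p = 0.161), 0.32 with median centring (adjusted p = 0.197) and 0.36 without 3d replicate 3 (adjusted p = 0.258).

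CycB, the main B-type cyclin partner of Cdk1, did not pass in any comparison of the main fit. Its level was 6.10, 5.78 and 5.73 at 3d, 5.97, 6.37 and 6.31 at 30d and 5.28, 6.13 and 6.14 at 60d. All ages overlapped, and 60d replicate 1, the array with the low 25th percentile, had the lowest value of all. The change was 0.35 ± 0.23 at 30d against 3d (95% interval -0.15 to 0.85, adjusted p = 0.228) and -0.020 ± 0.23 at 60d against 3d (95% interval -0.52 to 0.48, adjusted p = 0.959). After quantile normalization the 30d change was 0.066. Without 60d replicate 1 the 60d against 3d difference was 0.27 (adjusted p = 0.253). Of 21 alternatives, CycB passed in 2 at 30d against 3d and in 0 at 60d against 3d.

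CycE, which with Cdk2 starts DNA replication, was well above the filter on all 9 arrays. Its level was 8.15, 7.44 and 7.49 at 3d, 8.18, 8.18 and 8.21 at 30d and 7.62, 8.22 and 8.08 at 60d. The 30d arrays lay above all 3d arrays by a margin that 3d replicate 1 made narrow, and the 60d arrays overlapped with both ages. The change was 0.50 ± 0.21 at 30d against 3d (95% interval 0.04 to 0.96) and did not pass after adjustment (adjusted p = 0.0713), also with quantile normalization (0.52, adjusted p = 0.058). With median centring it was 0.24 (adjusted p = 0.329). 3d replicate 1 was the array with the high GAPDH ratio, and without it the change was 0.73 (adjusted p = 0.00792). Without 60d replicate 1 the 30d against 3d difference also passed (adjusted p = 0.0438), at the same size of 0.50. Omitting 3d replicate 2 or 3, the lower values at 3d, made that difference smaller, and it did not pass. It passed in 5 of 22 alternatives in all. For 60d against 3d the change was 0.28 ± 0.21 (adjusted p = 0.354), and 0.11 with median centring (adjusted p = 0.724). It was 0.51 without 3d replicate 1 (adjusted p = 0.0505) and 0.46 without 60d replicate 1 (adjusted p = 0.11), and with both omitted it was 0.69 and passed (adjusted p = 0.00189). Omitting 3d replicate 2, 3d replicate 3 or 60d replicate 2 gave 0.16, 0.18 and 0.16 (adjusted p = 0.652, 0.659 and 0.696).

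**Figure D3:**
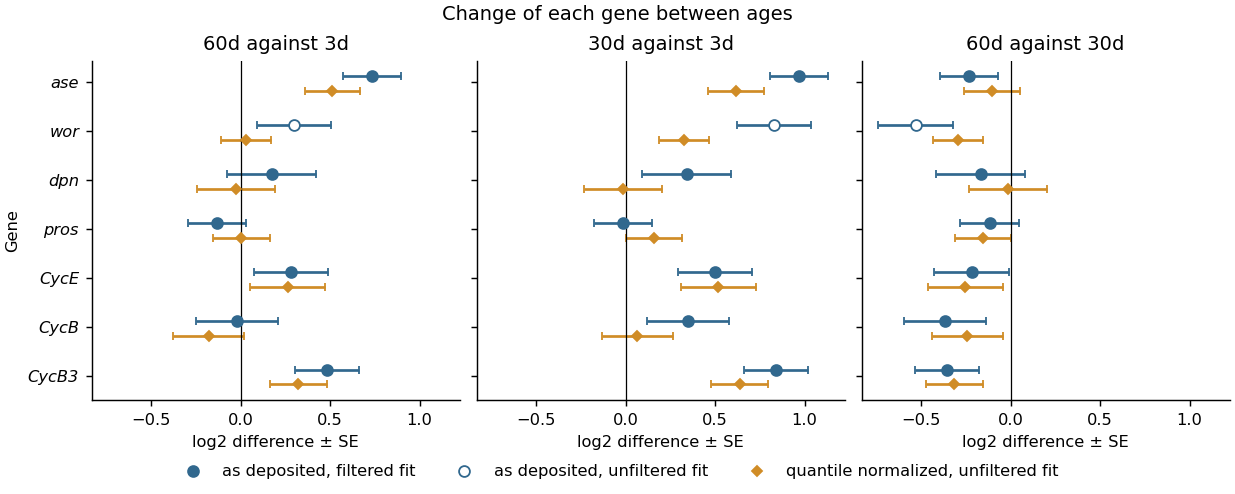
log2 differences ± SE of the 7 genes in 3 comparisons of ages, as deposited (circles, open for wor, which was below the filter) and after quantile normalization with no filter (diamonds). In 30d against 3d the circles of ase and CycB3 stand at 0.97 and 0.84 and their diamonds at 0.62 and 0.64, and the change of wor falls to 0.32.

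Counted over the 6 tested genes, 2 were higher and 0 lower at 30d against 3d, while over all genes tested 21.0% were called higher and 21.3% lower. The median change was 0.42, beside -0.01 over all genes tested. With quantile normalization ase and CycB3 were again called, of 5 tested, against 14.5% of all genes called higher. The count was 4 without 3d replicate 1, when CycE and dpn also passed, and 5 when 3d replicate 1 and 60d replicate 1 were both omitted. Calls rose over all genes as well: the F-test called 2779 of 8171 in the main fit and 3956 without 3d replicate 1. At 60d against 3d 1 gene, ase, was higher and 0 lower, against 8.03% of all genes higher and 10.5% lower, with a median of 0.23 beside 0.04. Quantile normalization left the same gene, against 5.53% of all genes called higher. Without 3d replicate 2 or without 60d replicate 1 the count was 2, with CycB3 added, and without 60d replicate 3 it was 0. Omitting both of those first arrays gave 4. At 60d against 30d limma called 0 of 6, against 0.526% of all genes called higher and 0.0122% called lower. An unadjusted p under 0.05 was also met by 0 of 6, against 797 higher and 438 lower of 8171 genes. The F-test over the 3 ages called ase and CycB3, 2 of 6, against 34.0% of all genes. The F-test and 60d against 30d counts were already near the shares over all genes. With 6 genes, 1 call more or fewer would put the main counts against 3d near them too. Nothing particular to the 6 genes is read from these counts. Over all genes 656 were higher and 855 lower at 60d against 3d, against 449 and 984 with quantile normalization and 287 and 1296 with median centring. For 30d against 3d the split was 1714 higher and 1741 lower, 1181 and 2140 with quantile normalization, and 662 and 2934 with median centring.

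The genes whose levels ran most like that of ase across the 9 arrays were CG11158 (r = 0.99), CG12645 (r = 0.98) and mud (r = 0.98). For CycB3 they were Ir31a, Ptth and Hus1-like (r = 0.99 each). These Pearson correlations describe arrays that share 3 ages and the dim-end differences above.

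Other genes of the neuroblast and its divisions were read from a list of 41, of which 37 had a probe set and 31 were tested. At 3d 23 of the 37 already averaged above 6.67, with Imp at 10.04 and Syp at 9.45. The arrays do not show which cells expressed these genes, so their changes are not read as changes of precursor cells. In the 30d against 3d comparison 13 were higher, 3 lower and 15 did not pass, against 21.0% of all genes higher and 21.3% lower, and the median change was 0.36, beside -0.01 over all genes. With quantile normalization the counts were 12 higher and 2 lower, against 1181 and 2140 of 8121 genes, with a median of 0.37. With median centring the median change of all genes was -0.29 in place of -0.01. The precursor counts were then 7 higher and 5 lower, against 662 and 2934 of 8125 genes, with a median of 0.10. The proneural factor ac, a neighbour of ase in the achaete-scute complex, rose by 1.10 ± 0.19 to 6.29 ± 0.10 at 30d, against 5.19 ± 0.36 at 3d (adjusted p = 0.00289). esg, a Snail-family factor like wor that maintains stem cells in several fly tissues, rose by 0.81 ± 0.15 (adjusted p = 0.00343). Both ac and esg were below the filter value on all 3d arrays, so they entered the test through the ages at which they were high. klu, a zinc finger factor of neuroblast lineages, averaged 8.89 ± 0.05 at 30d and 8.11 ± 0.15 at 3d and rose by 0.78 ± 0.16 (adjusted p = 0.00513). The other 10 called higher were brat, tap, sc, grh, Imp, Syp, btd, Kr, l(1)sc and svp, with changes of 0.36 to 0.78. They include the remaining proneural genes of the complex, sc and l(1)sc, so that all 4 of its transcription factors, ase among them, were called higher at 30d, a grouping made after the values were seen. With quantile normalization and no filter l(1)sc did not pass (adjusted p = 0.133).

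In the opposite direction, erm, a zinc finger factor that limits intermediate neural progenitors, fell to 5.90 ± 0.01 at 30d, against 7.15 ± 0.44 at 3d, and the difference was -1.25 ± 0.19 (adjusted p = 0.00256). The Sox-family factor D and the polarity kinase aPKC fell by 0.49 ± 0.16 and 0.51 ± 0.15 (adjusted p = 0.0322 and 0.023). At 60d against 3d 4 of the 31 were higher, 2 lower and 25 did not pass, against 8.03% of all genes higher and 10.5% lower. brat, a translational repressor that stops ganglion mother cells from reverting to neuroblasts, rose by 0.61 ± 0.15, ac by 0.66 ± 0.19 and the neuronal helix-loop-helix factor tap by 0.57 ± 0.17 (adjusted p = 0.0162, 0.0316 and 0.0394). erm fell by 1.23 ± 0.19 and D by 0.71 ± 0.16 (adjusted p = 0.00245 and 0.0145). With median centring 0 of the 31 were called higher and 3 lower, against 287 and 1296 of 8125 genes. At 60d against 30d limma called 0 of 31, against 43 higher and 1 lower of 8171 genes. An unadjusted p under 0.05 was met by 0 that were higher and 5 that were lower, against 797 and 438 of 8171 genes. The smallest p was that of ham at -0.56 ± 0.19 (adjusted p = 0.215). The 30d against 3d count of 16 was 7 when 3d replicate 3 was omitted. Omitting 30d replicates 1, 2 and 3 gave 10, 10 and 8. The 60d against 3d count of 6 was 11 and 2 without 3d replicates 1 and 3, 3 when any single 30d array was omitted, and 2 and 1 without 60d replicates 2 and 3.

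Mitosis genes did not move one way. Of 60 listed, 47 had a probe set and 25 were tested. Between 30d and 3d 6 were higher, 4 lower and 15 did not pass, against the same 21.0% and 21.3% of all genes, with a median of -0.05. The securin pim, a regulator of sister chromatid separation, rose by 0.78 ± 0.19 (adjusted p = 0.00956). The chromosome-associated kinesin nod rose by 0.61 ± 0.16 and Det, the fly survivin, by 0.47 ± 0.13 (adjusted p = 0.0133 and 0.0157). nod was below the filter value on all 3d arrays. The other 3 called higher were borr, fzy and mad2. The spindle checkpoint gene Mad1 fell by 0.77 ± 0.14, the microtubule polymerase msps by 0.57 ± 0.13 and Cks30A, a small Cdk1-binding protein, by 0.47 ± 0.15 (adjusted p = 0.00348, 0.00697 and 0.0263). With quantile normalization 5 of 24 were higher and 7 lower, against 1181 and 2140 of 8121 genes. With median centring 1 of 24 was higher and 10 lower, against 662 and 2934 of 8125 genes. nod, Det and mad2 no longer passed with quantile normalization and no filter (adjusted p = 0.19, 0.0631 and 0.285).

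At 60d against 3d 2 mitosis genes were higher, 3 lower and 20 did not pass, against 8.03% and 10.5% of all genes. Cks30A showed the lowest adjusted p of them, with 5.10 ± 0.10 at 60d and 6.02 ± 0.23 at 3d, a change of -0.92 ± 0.15 (adjusted p = 0.00266). It was above the filter value on the 3d arrays alone, and so entered the test through the age at which it was high. Mad1 and msps fell by 0.54 ± 0.14 and 0.40 ± 0.13 (adjusted p = 0.0224 and 0.0486). Det and mad2 rose by 0.48 ± 0.13 and 0.52 ± 0.16 (adjusted p = 0.0263 and 0.0484). With quantile normalization 0 of 24 were called higher and 2 lower, against 449 and 984 of 8121 genes. At 60d against 30d limma called 0 of 25, against 43 higher and 1 lower of 8171 genes. An unadjusted p under 0.05 was met by 0 that were higher and 2 that were lower, against 797 and 438 of 8171 genes. The smallest p was that of the anaphase activator fzy at -0.59 ± 0.17 (adjusted p = 0.156). The 30d against 3d count of 10 was 4 when 3d replicate 3 was omitted. Omitting 30d replicates 1, 2 and 3 gave 5, 4 and 4. The 60d against 3d count of 5 was 3 and 1 without 3d replicates 1 and 3, 2, 2 and 3 without 30d replicates 1, 2 and 3, and 9, 1 and 1 without 60d replicates 1, 2 and 3.

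Genes of the G1 to S transition and of DNA replication, the step at which CycE acts, mostly did not pass. The same held for all genes tested, with 4716 of 8171 not passing at 30d and 6660 at 60d against 3d. Of 42 listed, 35 had a probe set and 18 were tested. Comparing 30d with 3d, 2 were higher, 2 lower and 14 did not pass, again against 21.0% and 21.3% of all genes. With median centring 1 was higher and 4 lower, against 662 and 2934 of 8125 genes. Sld5, a subunit of the replication helicase, rose by 0.81 ± 0.20 and the sliding clamp PCNA by 0.44 ± 0.14 (adjusted p = 0.0115 and 0.0253). ago, the F-box protein that targets CycE protein for degradation, fell to 7.25 ± 0.10 at 30d, against 8.04 ± 0.38 at 3d, a change of -0.79 ± 0.18 (adjusted p = 0.00882). Cul1, the scaffold of the same ubiquitin ligase, fell by 0.50 ± 0.15 (adjusted p = 0.0198). Both kept their calls with quantile normalization and no filter (adjusted p = 0.0141 and 0.0351), while PCNA did not (adjusted p = 0.497).

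At 60d against 3d PCNA alone of the 18 passed, with a rise of 0.44 ± 0.14 (adjusted p = 0.0439), against 8.03% of all genes higher, and 0 passed with quantile normalization. At 60d against 30d limma called 0 of 18, against 43 higher and 1 lower of 8171 genes. An unadjusted p under 0.05 was met by 0 that were higher and 2 that were lower, against 797 and 438 of 8171 genes. Sld5 had the smallest p at -0.70 ± 0.20 (adjusted p = 0.164). The 30d against 3d count of 4 was 7 without 3d replicate 1, and 2 without 3d replicate 3 or 30d replicate 3. The 60d against 3d count of 1 was 3 without 3d replicate 1, 2 without 60d replicate 1, and 0 without 3d replicate 3, any single 30d array, 60d replicate 2 or 60d replicate 3.

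**Figure D4:**
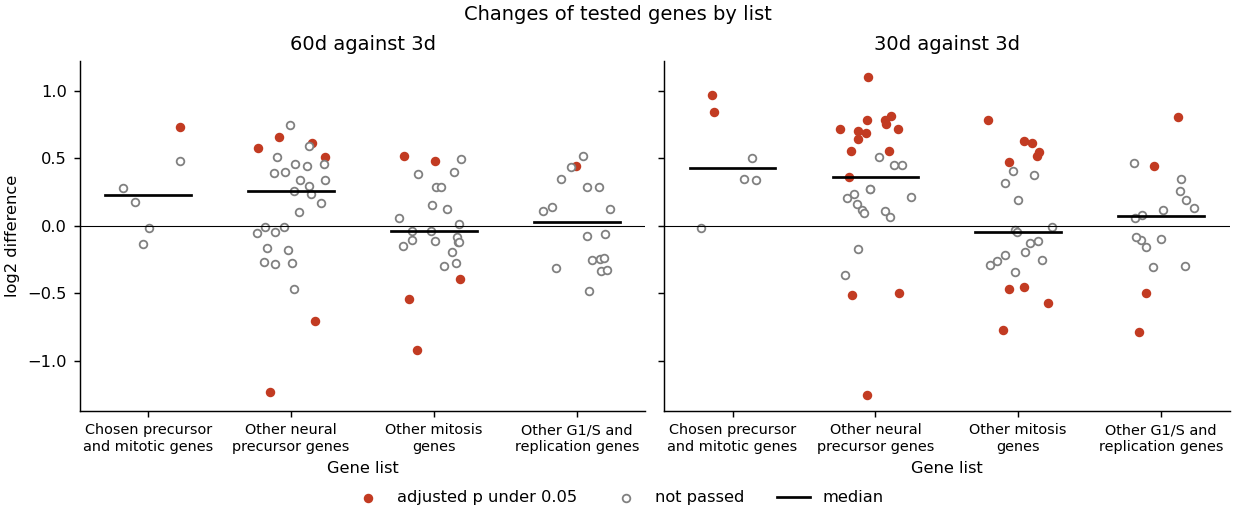
log2 differences of the tested genes in 60d against 3d and 30d against 3d, for the 6 chosen genes and 3 lists of related genes, with a point for each gene, filled where the adjusted p was under 0.05, and the median as a bar. In 30d against 3d the medians are 0.42 for the chosen genes, 0.36 for the other precursor genes, -0.05 for mitosis genes and 0.07 for G1/S and replication genes.

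Some markers of germline tissue, where many mitotic genes are active, were also higher at 30d against 3d, mainly those of testis. Of 10 testis markers 7 were tested, with 6 higher and 1 not passing, against 21.0% of all genes higher, and the median change was 0.59. Their summed signal was 1046 to 1104 at 30d, against 584 to 771 at 3d, and 669 to 1060 at 60d. With quantile normalization 2 of 7 were higher, against 14.5% of all genes, and with median centring 1, against 662 of 8125 genes. At 60d against 3d 0 of the 7 were called. Of 14 ovary and germline markers with a probe set 10 were tested, and 3 (vas, osk and bcd) were higher and 0 lower. Over all genes 21.0% were higher and 21.3% lower. The change was positive for 6 of the 10. With median centring 1 was higher, against 662 of 8125 genes. At 60d against 3d 0 of the 10 were called. The summed ovary signal overlapped at 5162 to 6323 at 30d, against 5266 to 6338 at 3d. None of these markers was listed at 0 on any array, and the lowest signal was 13.6 among testis and 1.32 among ovary markers. The 3d mean exceeded 6.67 for 2 of the 10 testis and 9 of the 14 ovary markers. Their part in the results above was not tested.

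The total signal of neuron and glia markers was lower at both later ages than at 3d, though not that of every marker. A sum weighs the brightest markers most, such as Gad1 and Gs2. The sums are of deposited signals, whose 90th percentile also averaged lower at 30d and 60d (8.73 and 8.77) than at 3d (8.84). The part of that shift in the sums was not tested. Of 12 tested neuron markers 0 were higher, 4 lower and 8 did not pass, both at 30d and at 60d against 3d, where 21.3% and 10.5% of all genes were lower. The 30d counts were 1 higher and 3 lower with quantile normalization, against 1181 and 2140 of 8121 genes. With median centring they were 0 and 6, against 662 and 2934 of 8125 genes. The summed signal was 11719 to 13075 at 30d and 11186 to 12490 at 60d, against 14430 to 14843 at 3d. Among the 12 neuron markers the change was positive for 3 in both comparisons. Of 10 tested glia markers 1 was higher and 2 lower in both comparisons. Over all genes 21.0% were higher and 21.3% lower at 30d, and 8.03% and 10.5% at 60d. The summed glia signals were 6624 to 7486 at 30d and 7044 to 8557 at 60d, against 8816 to 9763 at 3d. The change was positive for 1 of the 10 at 30d and 4 at 60d, and Gli averaged 6.62, 7.25 and 7.95 at 3d, 30d and 60d. With quantile normalization 0 glia markers were higher and 2 lower at 30d, against 1181 and 2140 of 8121 genes. With median centring 0 glia markers were higher and 5 lower at 30d, against 662 and 2934 of 8125 genes. Their part in the results was not tested either. Of 6 tested muscle markers 3 were higher at 30d (2 with quantile normalization and 0 with median centring) and 4 at 60d against 3d (4 and 3). Over all genes 21.0% were higher at 30d and 8.03% at 60d. The summed muscle signals were 1017 to 1113 at 30d and 1268 to 1424 at 60d, against 795 to 830 at 3d. Of 7 tested haemocyte markers 2 were higher and 1 lower at 30d and 1 and 1 at 60d. Of 5 fat body markers 1 was higher in each comparison. The shares over all genes were 21.0% higher and 21.3% lower at 30d, and 8.03% and 10.5% at 60d. With so few markers these counts are not read as a change. With median centring the haemocyte counts were 0 and 2 at 30d and 0 and 1 at 60d, and those of fat body 0 and 1 at 30d and 0 and 0 at 60d. All genes then gave 662 and 2934 of 8125 at 30d, and 287 and 1296 at 60d.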

How the data were processed

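The deposited table gives 1 linear signal intensity per probe set and array for 18952 probe sets, of which 183 are controls. GCRMA and MAS5 are named, with neither role nor version, per the submitters' processing notes. Per the values, each deposited intensity is of the MAS5 kind, scaled to a trimmed mean of 150.0 on every array and not quantile normalized. RNA was extracted with Trizol and biotin-labelled with an Ovation kit, per the labels' protocols. Median signals lay between 60.6 and 78.3 on the 9 arrays, whose number sets the precision. Names came from the platform annotation, updated through 13544 of 13647 entrez identifiers in a RefSeq gene table, and no genome or sequence table was used.

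Per gene the probe set with the highest mean was kept. log2(signal + 1) was tested over all 9 arrays with limma 3.58.1 (R 4.3.3), a mean being fitted per age, with 6 residual and 5.51 prior degrees of freedom, two-sided, with Benjamini-Hochberg adjustment and a threshold of 0.05. The fit was tested on simulated data. Alternatives changed the normalization, pseudocount, filter, probe set choice, pairing, covariate, array weights and arrays used. Figures used matplotlib 3.10.9.

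The members and lists were chosen with earlier results of these data known. All members are named. Of each list up to 3 called genes per direction and comparison are named by adjusted p. Where none passed, the gene of lowest p is named. For the 2 members with the smallest F-test p, the 3 most correlated genes are named. Other named genes complete a count and were added after their values were seen.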

Additional observations from a re-analysis of the deposited data

How the results depend on the processing

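The rises of ase and CycB3 at 30d against 3d kept their direction and passed in all alternatives that gave a value (21 and 22), with adjusted p from 9.11e-05 to 0.0207 and from 0.000268 to 0.0311. That of ase at 60d passed in 18 of 21 (adjusted p from 0.00018 to 0.0664). It failed with quantile normalization and no filter together, an alternative chosen after seeing the data, without 60d replicate 3, and with only the 2 ages in the fit (adjusted p = 0.0533). Chosen genes called at 60d against 3d numbered 1, and 0 with the stricter filter, which left out ase, or with only the 2 ages, 2 with the GAPDH 3' to 5' ratio as a covariate, 4 with array weights, 4 without both first arrays and 0 to 2 without single arrays. At 30d against 3d they numbered 2, and 1, 4, 5 and 5 with the stricter filter, the covariate, array weights and without both first arrays, and 2 to 4 without single arrays. At 60d against 30d array weights called 1, and no fit without a single array called any.

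For the other precursor genes the 60d against 3d count of 6 became 3 with median centring, 3 with no filter, 12 with the covariate, 18 with array weights, 17 without both first arrays, 1 with only the 2 ages and 1 to 11 without single arrays. The 30d against 3d count of 16 ran from 7 to 20 without single arrays. For 60d against 30d array weights gave 13 and single arrays 0 to 1. For mitosis genes at 60d against 3d the count of 5 became 2 with quantile normalization, 3 with median centring, the stricter filter, every probe set tested or the replicate block, 10 with array weights, 13 without both first arrays, 1 with only the 2 ages and 1 to 9 without single arrays. At 30d against 3d the 10 became 16 with no filter, 5 with the stricter filter and 4 to 13 without single arrays, and array weights called 8 at 60d against 30d. For G1/S and replication genes at 60d against 3d the count of 1 became 0 with quantile normalization, a pseudocount of 16, the stricter filter, the replicate block or only the 2 ages, 2 with no filter, 3 with the covariate, 7 with array weights, 7 without both first arrays and 0 to 3 without single arrays. At 30d against 3d the 4 became 11 with no filter, 7 with the covariate, 8 with array weights, 10 without both first arrays and 2 to 7 without single arrays. At 60d against 30d array weights gave 4 and single arrays 0 to 1. The F-test count over all genes, 2779, became 6053 with array weights, 5123 without both first arrays and 3919 with the covariate. It ran from 992 to 3956 without single arrays, and it has no form with only 2 ages. Calls over all genes thus moved with the fit too. No count of a list in these fits, here or above, is read as particular to that list. For none of these changes was the cause tested, apart from genes that a filter adds or removes.

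Among the chosen genes signs turned only for changes that had not passed. The change of pros at 60d against 3d (-0.13) was 0.0042 with quantile normalization, with or without a filter, 0.025 with the covariate, 0.017 without both first arrays and -0.26 to 0.035 without single arrays (3d replicates 2 and 1). At 30d against 3d (-0.013) it was 0.16 with quantile normalization, 0.12 with the covariate, 0.10 with array weights, 0.15 without both first arrays, and -0.14 to 0.15 without single arrays, with 0.15 without 3d replicate 1 and 0.027 without 30d replicate 3. The change of CycB at 60d against 3d (-0.020) was 0.095 with the covariate, 0.31 with array weights, 0.38 without both first arrays and -0.17 to 0.27 without single arrays (60d replicates 3 and 1), with 0.095 without 3d replicate 1. That of dpn at 60d against 3d (0.17) was -0.077 to 0.47 without single arrays (3d replicates 3 and 1) and -0.028 with quantile normalization and no filter, which gave -0.013 at 30d against 3d. That of ase at 60d against 30d was 0.0087 with array weights.

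Replicate numbers did not pair the arrays: the deviations of same-numbered arrays correlated between -0.33 and 0.14. Those of 3d replicate 3 correlated at 0.57 with 60d replicate 1 and at -0.55 with 60d replicate 2. What these arrays share was not tested. With the replicate block the chosen genes called were again ase and CycB3 at 30d (adjusted p = 0.00604 and 0.00744) and ase at 60d (adjusted p = 0.0199). Genes near or under the filter, wor above all, limit what these arrays can show.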
